A study of Mus musculus with 4 samples.

Results

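Genes that make, convert, store, bind or sense oxysterols were compared between dorsal skin of mice fed 7-ketocholesterol (7KC) and dorsal skin of mice fed the same diet without it. The 9 genes (*Ch25h*, *Cyp27a1*, *Cyp7b1*, *Hsd3b7*, *Hsd11b1*, *Sult2b1*, *Soat1*, *Osbp* and *Gpr183*) were picked by gene symbol from their known roles, and all 9 were found among the 24346 symbols of each library. Male C57BL/6 mice, 8 weeks old at the start, received a high-fat, high-cholesterol diet with bile salt (NASH diet) for 3 weeks, either alone (Cont-IMQ group) or with 7KC (7KC-IMQ group). Imiquimod (IMQ), a Toll-like receptor 7 agonist whose cream induces psoriasis-like dermatitis in mice, was then applied to the back, for 1 day in both groups by the sample titles (the design text speaks of daily use in the 7KC-IMQ group). There were 4 RNA sequencing libraries, 2 in each group, and both groups share the NASH diet and the IMQ cream, so neither skin without IMQ nor skin of mice on a plain diet is part of the comparison. The sources used here do not say whether a library came from 1 mouse or from a pool, and p-values measure only the spread between these 4 libraries.

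Oxysterols are oxidized forms of cholesterol. Some are made by enzymes, such as 25-hydroxycholesterol and 27-hydroxycholesterol, whereas 7KC forms mostly without an enzyme and enters with food. Cells remove them by further hydroxylation toward bile acids, by reduction, by sulfation or by esterification, and they sense them through proteins in the membrane, the cytosol and the nucleus. In skin, sulfated sterols belong to the chemistry of the cornified layer, and the G protein-coupled receptor encoded by *Gpr183* guides immune cells along gradients of 7alpha,25-dihydroxycholesterol. The study discussed that dietary oxysterols may travel to IMQ lesions bound to oxysterol-binding proteins. In dorsal skin before IMQ, however, it found no significant difference in 7KC between the diets. It proposed that inflammation in liver and serum might promote the dermatitis. The comparison here asks which genes of this system stood at another level in the lesion.

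Values are FPKM, fragment counts scaled to exon length and to the mapped fragments of the library, as the authors deposited them. In pairs of values below, replicate 1 comes first, and the Cont-IMQ group is called without 7KC and the 7KC-IMQ group with 7KC. The depth estimated from the low values lay between 14950000 and 16200000 mapped reads per library. Differences are given on the log2(FPKM + 1) scale, which understates the change of genes near or below 1 FPKM, and were tested by limma over the 15896 genes with a mean of at least 0.1 FPKM, with Benjamini-Hochberg adjustment at 0.05. By this test 1 of the 15896 genes passed (0.00629% called lower, 0.0% called higher), and none of the 9 oxysterol genes did. The gene that passed was the microRNA gene *Mir24-2*. It had 549 and 555 FPKM without 7KC and was listed at 0 in both libraries with 7KC. What lies behind this all-or-none pattern was not tested. Before adjustment, 1192 genes were higher (7.5%) and 869 lower (5.47%) at a limma p-value under 0.05, among them *Cyp7b1* and *Soat1*, both higher, and 0 of the 9 oxysterol genes as lower. The skin carried its defining keratinocyte genes, with *Krt14* between 4132 and 5700 FPKM and *Krt5* between 2544 and 3062 FPKM. The hepatocyte gene *Alb* was between 0.538 and 1.93 FPKM, and *Cyp7a1*, the liver enzyme that starts bile acid synthesis, was listed at 0 in all 4 libraries. Cont-IMQ replicates stood apart from each other in hair follicle genes, whose summed level was 96.9 FPKM in replicate 1 and 1381 FPKM in replicate 2, while the sums of the 7KC-IMQ libraries were 377 and 333 FPKM.

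Both libraries of the 7KC-IMQ group lay above both of the Cont-IMQ group in *Cyp7b1*, *Soat1*, *Sult2b1* and *Osbp*, and below both in *Ch25h* and *Cyp27a1*. *Hsd3b7*, *Hsd11b1* and *Gpr183* overlapped. Such separation is common in these libraries, since 23.9% of the genes tested were higher and 22.9% lower without overlap, 46.8% in all, so that 6 of 9 is to be read against that share. The largest difference was in *Cyp7b1*, and the smallest among the separated genes was in *Osbp*. The median log2 fold change over the 9 genes was 0.11, against -0.01 over all genes tested. When every library was rescaled to the same sum, 3 of the genes were higher (*Cyp7b1*, *Soat1* and *Sult2b1*) and 3 lower (*Ch25h*, *Cyp27a1* and *Hsd11b1*) without overlap, while the shares over all genes moved to 15.0% and 32.1%.

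**Figure D1:**
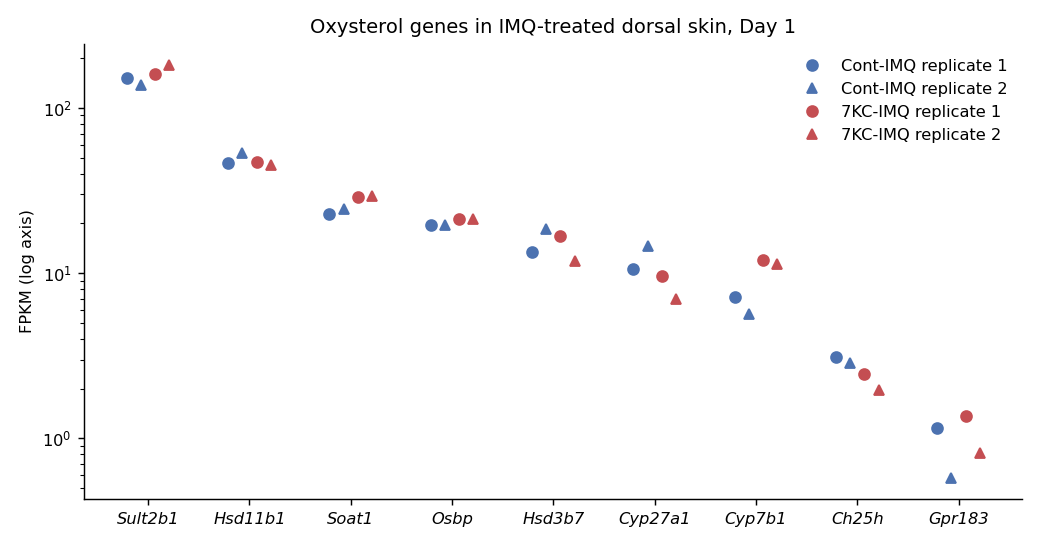
FPKM of the 9 oxysterol genes (y axis, log scale) in each library, with genes ordered by their mean (x axis), color for the group and symbol for the replicate number. Red symbols lie above blue ones in *Cyp7b1*, *Soat1*, *Sult2b1* and *Osbp* and below them in *Ch25h* and *Cyp27a1*.

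The genes covered a wide range of levels, which FPKM allows to be compared because it is scaled to length. *Sult2b1* had the highest mean over the 4 libraries (158 FPKM), followed by *Hsd11b1* (48.0 FPKM), *Soat1* (26.3 FPKM), *Osbp* (20.4 FPKM), *Hsd3b7* (15.1 FPKM), *Cyp27a1* (10.4 FPKM), *Cyp7b1* (9.09 FPKM), *Ch25h* (2.60 FPKM) and *Gpr183* (0.981 FPKM). Neighbors in this order did not overlap in range, except *Hsd3b7* with *Cyp27a1* and *Cyp27a1* with *Cyp7b1*. *Hsd3b7* was above *Cyp27a1* in 4 of 4 libraries, and *Cyp27a1* above *Cyp7b1* in 2 of 4, both of them Cont-IMQ libraries. The order of these 2 P450 genes was therefore opposite in the 2 groups. Among all genes tested, *Sult2b1* stood at the 96.4th percentile of mean level and *Gpr183* at the 17.3rd.

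Of the genes for enzymes that hydroxylate the side chain of cholesterol, *Ch25h* and *Cyp27a1* had lower values in both 7KC-IMQ libraries, with 95% intervals that included 0, and *Cyp46a1*, the 24-hydroxylase, overlapped near the floor (0.170 and 0.240 FPKM without 7KC, 0.159 and 0.241 FPKM with 7KC). *Ch25h* (chr19:34473778-34475164 of GRCm38, minus strand) encodes cholesterol 25-hydroxylase, an enzyme of the endoplasmic reticulum that macrophages and dendritic cells induce in response to interferon. It had 3.12 and 2.87 FPKM without 7KC and 2.44 and 1.96 FPKM with 7KC. The groups did not overlap, but the gap between them (0.427 FPKM) was smaller than the distance between the 7KC-IMQ libraries (0.483 FPKM). The values came from an estimated 56 and 51 reads against 47 and 35, and the exact 95% Poisson interval of Cont-IMQ replicate 2 (2.14 to 3.78 FPKM) contained 7KC-IMQ replicate 1. Such intervals cover counting error only. The log2 fold change was -0.32 (standard error 0.13, 95% interval -0.66 to 0.01, adjusted p = 0.397 in limma), and it was -0.21 without 7KC-IMQ replicate 2, smaller by over 1.5 times. On the opposite strand, a long noncoding RNA gene (Gm26902) overlaps 159 exonic bases of *Ch25h*, and whether reads were assigned by strand is not given in the sources used here.

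*Cyp27a1* (chr1:74713574-74737892, plus strand) encodes the mitochondrial sterol 27-hydroxylase, which oxidizes the side chain of cholesterol and of other sterols, 7KC among them. It had 10.5 and 14.5 FPKM without 7KC and 9.66 and 6.96 FPKM with 7KC. The libraries of each group lay farther apart (4.003 and 2.70 FPKM) than the nearest libraries of different groups (0.868 FPKM). The log2 fold change was -0.54 (standard error 0.22, 95% interval -1.11 to 0.03, adjusted p = 0.400 in limma), and it was -0.32 without Cont-IMQ replicate 2 and -0.33 without 7KC-IMQ replicate 2, both smaller by over 1.5 times.

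*Cyp7b1* (chr3:18071950-18243338, minus strand, 1 annotated transcript) encodes oxysterol 7alpha-hydroxylase, which acts on 25-hydroxycholesterol and 27-hydroxycholesterol and so both clears them and makes the ligand of *Gpr183*. It had 7.22 and 5.69 FPKM without 7KC and 12.1 and 11.4 FPKM with 7KC. The means were 6.45 ± 1.08 and 11.7 ± 0.485 FPKM (SD, n = 2), a ratio of 1.82. The lowest 7KC-IMQ library was 4.17 FPKM above the highest Cont-IMQ library, more than the distances within the groups (1.53 and 0.685 FPKM). An estimated 216 and 167 reads stood against 385 and 335, and the exact Poisson intervals of the groups did not meet (6.29 to 8.25 FPKM in Cont-IMQ replicate 1, 10.2 to 12.7 FPKM in 7KC-IMQ replicate 2). The log2 fold change was 0.78 (standard error 0.13, 95% interval 0.43 to 1.13, unadjusted p = 0.0027, adjusted p = 0.352 in limma), and leaving out each library in turn gave 0.63 to 0.93. It was the gene with the smallest p-value of the 9, where 7.5% of all genes were higher at an unadjusted p-value under 0.05.

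*Hsd3b7* (chr7:127800604-127803802, plus strand) encodes the 3beta-hydroxysteroid dehydrogenase that acts on 7alpha-hydroxylated sterols, the step after *Cyp7b1*, and thereby inactivates the ligand of *Gpr183*. It had 13.5 and 18.4 FPKM without 7KC and 16.8 and 11.8 FPKM with 7KC, so the groups overlapped. The log2 fold change of -0.15 had a wide interval (-0.74 to 0.44, adjusted p = 0.803 in limma), and its sign turned without Cont-IMQ replicate 2 (0.060) or without 7KC-IMQ replicate 2 (0.087). In GENCODE M21, 46.1% of its 75-base windows also occur in *Gm49388*, an overlapping gene on the same strand, so its level depends on how reads of both were divided. Set against *Hsd3b7* within the same library, *Cyp7b1* stood at a log2 ratio of -0.82 and -1.54 in the Cont-IMQ libraries and -0.44 and -0.04 in the 7KC-IMQ libraries. The difference of 0.93 separated the groups (exact two-sided permutation test, p = 0.333, the smallest that 2 libraries against 2 can give, for 5 pairs computed), with 0.57 to 1.29 when a library was left out.

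*Hsd11b1* (chr1:193221634-193264075, minus strand) encodes 11beta-hydroxysteroid dehydrogenase type 1, which reactivates glucocorticoids and also reduces 7KC to 7beta-hydroxycholesterol. It was at 46.7 and 53.6 FPKM without 7KC and 46.8 and 45.1 FPKM with 7KC. Cont-IMQ replicate 2 was the high one and the other 3 libraries lay within 1.69 FPKM of each other. *Hsd11b1* had a log2 fold change of -0.12 (limma, standard error 0.09, adjusted p = 0.625), and the 95% interval, from -0.37 to 0.13, bounds the difference on this scale without showing that the groups were equal. The value was -0.023 without Cont-IMQ replicate 2, -0.22 without Cont-IMQ replicate 1 and -0.20 when every library was rescaled to the same sum. *Hsd11b2*, which encodes the enzyme of the opposite direction, had 0.751, 2.84, 2.96 and 1.64 FPKM in the same order of libraries and overlapped. *H6pd*, which supplies the cofactor of *Hsd11b1* inside the endoplasmic reticulum, had 13.3 and 15.3 FPKM against 18.1 and 16.5 FPKM, higher without overlap in the 7KC-IMQ group (log2 fold change 0.26, standard error 0.11, adjusted p = 0.411 in limma, and 0.16 without Cont-IMQ replicate 1). The gene for the 7KC-reducing enzyme itself thus showed no difference detectable with these libraries.

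*Sult2b1* (chr7:45729983-45784669, minus strand) encodes the sulfotransferase that makes cholesterol sulfate in differentiating keratinocytes and also sulfates oxysterols, 7KC included. It had 152 and 137 FPKM without 7KC and 161 and 183 FPKM with 7KC. The groups were 8.60 FPKM apart at their nearest libraries and 14.9 and 21.7 FPKM wide. The log2 fold change was 0.24 (standard error 0.10, 95% interval -0.03 to 0.51, adjusted p = 0.419 in limma), 0.15 without 7KC-IMQ replicate 2 and 0.15 after quantile normalization, both smaller by over 1.5 times. The gene has 2 promoters in RefSeq, and the deposited files give 1 value for the transcripts of both. Up to 243 of its exonic bases overlap *Gm31597* and *Lmtk3* on the opposite strand, and *Lmtk3* itself was between 0.340 and 0.694 FPKM.

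*Soat1* (chr1:156424525-156474331, minus strand) encodes acyl-CoA:cholesterol acyltransferase 1, which esterifies cholesterol and oxysterols for storage in lipid droplets and is prominent in macrophages and sebaceous glands. Its level was 22.9 and 24.3 FPKM without 7KC and 29.0 and 29.1 FPKM with 7KC. Here the gap between the groups (4.64 FPKM) was larger than the distance within either (1.42 and 0.171 FPKM), and the means were 23.6 ± 1.00 and 29.0 ± 0.121 FPKM (SD, n = 2). *Soat1* had a log2 fold change of 0.29 (standard error 0.08, 95% interval 0.09 to 0.49, unadjusted p = 0.0142, adjusted p = 0.356 in limma), with 0.25 to 0.33 when a library was left out. When every library was rescaled to the same sum it was 0.21 (unadjusted p = 0.0735 in limma).
Of 13 other genes of 7-ketosterol, epoxide, sulfate and ester handling, 3 were higher and 3 lower without overlap (median log2 fold change 0.04). These shares, 23.1% in each direction, were close to the 23.9% and 22.9% of all genes tested. Esterases that act opposite to *Soat1* were among the lower ones. *Nceh1*, a neutral hydrolase of cholesterol esters in macrophages, had 6.37 and 6.40 FPKM without 7KC and 4.002 and 4.15 FPKM with 7KC (log2 fold change -0.54, standard error 0.10, unadjusted p = 0.0032, adjusted p = 0.352 in limma). *Lipa*, the lysosomal acid lipase that frees cholesterol from lipoprotein esters, had 10.5 and 13.97 FPKM against 8.08 and 8.04 FPKM (log2 fold change -0.53, standard error 0.15, adjusted p = 0.356 in limma, and -0.34 without Cont-IMQ replicate 2). The log2 ratio of *Soat1* to *Nceh1* within a library was 1.70 and 1.77 in the Cont-IMQ group and 2.58 and 2.55 in the 7KC-IMQ group. The difference was 0.83 (exact two-sided permutation test, p = 0.333, the smallest possible), with an SD of 0.054 and 0.025 in the groups (n = 2). It ranged from 0.79 to 0.87 when a library was left out. The ratio combines the higher *Soat1* and the lower *Nceh1* described above. Its separation was therefore fixed by theirs and is no further result. *Soat2*, the acyltransferase of liver and intestine, was near the floor, with 0.237 and 0.102 FPKM against 0.505 and 0.309 FPKM, and was higher without overlap (adjusted p = 0.471 in limma).

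*Osbp* (chr19:11965941-11994112, plus strand, 1 annotated transcript) encodes oxysterol-binding protein, which carries cholesterol from the endoplasmic reticulum to the Golgi in exchange for a phosphoinositide and binds 25-hydroxycholesterol. It was the most even gene of the 9, with 19.7 and 19.5 FPKM without 7KC and 21.2 and 21.4 FPKM with 7KC. The within-group SD on the log2 scale was 0.0094, against a median of 0.11 over all genes tested. The groups were 1.504 FPKM apart, where the libraries of a group differed by 0.217 and 0.171 FPKM, but the difference itself was small, since the log2 fold change came to 0.11 (standard error 0.07, 95% interval -0.08 to 0.31, adjusted p = 0.558 in limma). Estimated reads were 1285 and 1249 against 1473 and 1372, and the exact Poisson intervals met (18.6 to 20.8 FPKM in Cont-IMQ replicate 1, 20.1 to 22.3 FPKM in 7KC-IMQ replicate 1). When every library was rescaled to the same sum, the log2 fold change was 0.04 and the groups of *Osbp* overlapped.

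*Gpr183* (chr14:121952551-121965195, minus strand) encodes the chemotactic receptor for 7alpha,25-dihydroxycholesterol on B cells, T cells, dendritic cells and macrophages. It was the lowest gene, with 1.16 and 0.574 FPKM without 7KC and 1.37 and 0.817 FPKM with 7KC, from an estimated 45, 22, 56 and 31 reads if its longer transcript is the source. Replicate 1 was above replicate 2 in both groups, and the groups overlapped. For *Gpr183* the log2 fold change was 0.17 (standard error 0.22, 95% interval -0.41 to 0.75, adjusted p = 0.778 in limma), and its sign turned without Cont-IMQ replicate 2 (-0.057) or without 7KC-IMQ replicate 1 (-0.022). Dendritic and Langerhans cell markers, mostly *H2-Aa* and *H2-Ab1* by level, also had replicate 1 above replicate 2 within each group. Their summed levels were 689 and 493 FPKM without 7KC and 661 and 505 FPKM with 7KC. That order was not particular to them. T cell markers summed to 18.4 and 16.6 FPKM without 7KC and 14.5 and 11.9 FPKM with 7KC. Fibroblast markers summed to 3531 and 2590 FPKM without 7KC and 3316 and 2916 FPKM with 7KC. B cell markers were near the floor, with *Ms4a1* and *Pax5* listed at 0 in all libraries. The part of these markers in the level of *Gpr183* was not tested.

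**Figure D2:**
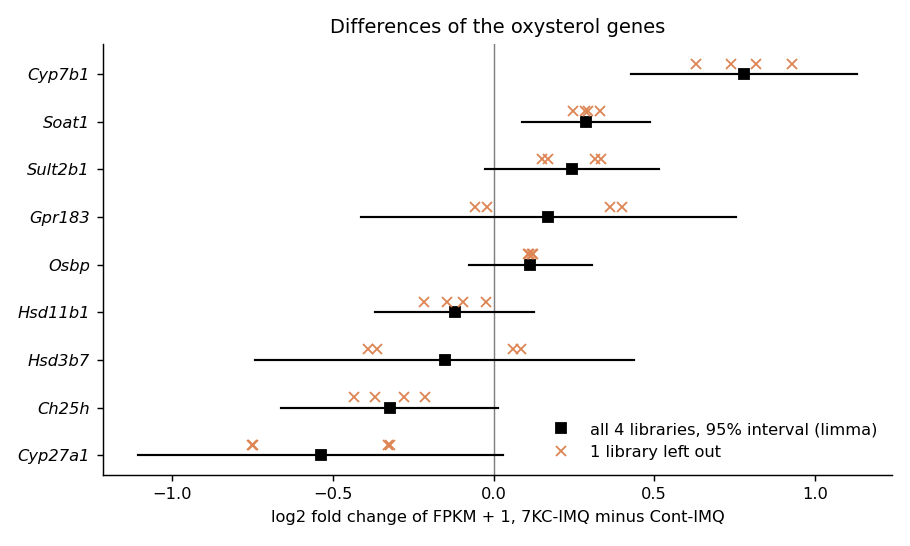
Log2 fold change of FPKM + 1, 7KC-IMQ minus Cont-IMQ (x axis), for each oxysterol gene (y axis), with squares for all 4 libraries, bars for the 95% interval of limma and crosses for fits with 1 library left out. Only the intervals of *Cyp7b1* (0.43 to 1.13) and *Soat1* (0.09 to 0.49) lie wholly on 1 side of 0, and the crosses of *Hsd3b7* and *Gpr183* fall on both sides.

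The sequences before the transcription starts are shown for the pair of genes that were lower and for *Soat1* and *Osbp* among those that were higher, since genes that stood together can be compared for shared motifs. The RefSeq promoters used here (GRCm38.p6) covered 8 of the 9 genes and held no entry for *Cyp7b1*. The 250 bases upstream of each start were searched on both strands for 4 motifs chosen after the sequences were read. The letters AGGTCA, a half-site of nuclear receptors such as LXR, occurred in 0 of the 8 genes and in 14.02% of all 32851 promoters. TCACNCCAC, a sterol regulatory element, was found in 0 of them and in 1.05% of all promoters. CCAAT occurred in 4 of the 8 genes (*Cyp27a1*, *Soat1*, *Hsd11b1* and *Osbp*) and in 33.8% of all promoters. TGACGTCA, a cAMP response element, was present in *Ch25h* alone, starting 61 bases before the start, and in 1.55% of all promoters. Capitals mark the CCAAT motif, which reads as its complement ATTGG where it lies on the opposite strand, and the cAMP response element. Each sequence is written 5′ to 3′ on the strand of its gene. No motif in capitals was common to both genes that were lower. Of the genes that were higher but are not shown, *Sult2b1* held none of the 4 motifs in either promoter, and *Cyp7b1* could not be searched. CCAAT was therefore not found in every gene that was higher.
Ch25h promoter (chr19:34475149-34475398, minus strand): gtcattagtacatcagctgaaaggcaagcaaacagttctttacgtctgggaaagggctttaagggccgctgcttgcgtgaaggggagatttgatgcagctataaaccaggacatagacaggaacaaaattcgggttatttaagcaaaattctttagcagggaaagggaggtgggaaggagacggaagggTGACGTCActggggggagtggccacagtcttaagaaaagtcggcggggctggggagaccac
Cyp27a1 promoter (chr1:74713285-74713534, plus strand): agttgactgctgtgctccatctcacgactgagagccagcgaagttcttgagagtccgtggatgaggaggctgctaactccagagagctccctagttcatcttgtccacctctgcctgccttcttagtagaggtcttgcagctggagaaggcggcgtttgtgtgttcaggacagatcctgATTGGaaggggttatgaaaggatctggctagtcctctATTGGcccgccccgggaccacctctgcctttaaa
Soat1 promoter (chr1:156474329-156474578, minus strand): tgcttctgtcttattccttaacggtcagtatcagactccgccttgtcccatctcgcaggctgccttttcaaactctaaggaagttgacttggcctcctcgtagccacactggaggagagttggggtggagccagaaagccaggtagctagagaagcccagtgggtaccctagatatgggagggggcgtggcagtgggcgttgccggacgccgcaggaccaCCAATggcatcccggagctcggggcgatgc
Osbp promoter (chr19:11965594-11965843, plus strand): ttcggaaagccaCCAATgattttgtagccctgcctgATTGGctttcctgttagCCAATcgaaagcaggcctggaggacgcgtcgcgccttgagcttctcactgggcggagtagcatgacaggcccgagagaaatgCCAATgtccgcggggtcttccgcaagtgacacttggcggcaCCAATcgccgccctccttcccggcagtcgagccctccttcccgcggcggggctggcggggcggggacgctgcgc
The promoter of *Osbp* held 5 copies of CCAAT, that of *Cyp27a1* 2 and that of *Soat1* 1. A match is a description of letters and shows neither binding nor a cause.

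Around the 9 genes, 62 others of the same chemistry were listed by role, and 58 of them could be tested. In all, 12 were higher and 21 lower without overlap (20.7% and 36.2%, against 23.9% and 22.9% of all genes tested), with a median log2 fold change of -0.03. Before adjustment, 3 were higher and 11 lower at a limma p-value under 0.05, where 7.5% and 5.47% of all genes tested were. After adjustment 0 passed. The lists were written with earlier results of these data known, and their counts are descriptions.
The group of other sensors and exporters was the most one-sided, with 6 of 9 lower and 1 higher without overlap (median log2 fold change -0.24). *Rora*, a nuclear receptor that binds sterols, had 29.7 and 25.2 FPKM without 7KC and 20.2 and 20.4 FPKM with 7KC (log2 fold change -0.41, standard error 0.10, adjusted p = 0.356 in limma). *Smo*, the Hedgehog transducer that oxysterols bind, was the one gene that was higher, with 23.6 and 26.6 FPKM against 28.0 and 27.8 FPKM (log2 fold change 0.15, and 0.065 without Cont-IMQ replicate 1). *Abcg1*, an exporter of 7KC and a target of LXR, had 8.94 and 8.31 FPKM without 7KC and 8.04 and 8.43 FPKM with 7KC and overlapped (log2 fold change -0.06, 95% interval -0.31 to 0.19, limma).

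**Figure D3:**
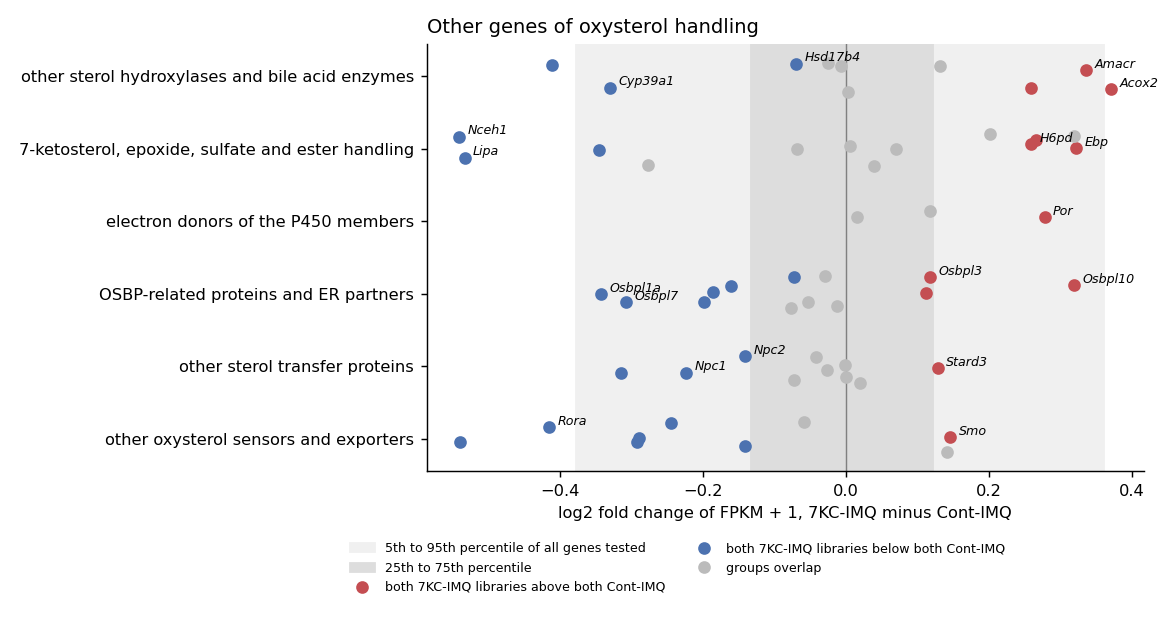
Log2 fold change of FPKM + 1, 7KC-IMQ minus Cont-IMQ (x axis), of 58 other genes of oxysterol handling by role (y axis), with red and blue for genes separated without overlap and grey for the rest, and bands for the spread of all genes tested. *Nceh1* and *Lipa*, at -0.54 and -0.53, are among the points farthest to the left, and names are given for some of the genes described in the text.

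Relatives of *Osbp* lay in both directions. Of 13 OSBP-related proteins and their anchors in the endoplasmic reticulum, 3 were higher and 6 lower without overlap, where 23.9% and 22.9% of all genes tested were (15.0% and 32.1% with every library rescaled to the same sum). *Osbpl1a*, whose product joins late endosomes to the endoplasmic reticulum, had 35.6 and 27.9 FPKM without 7KC and 26.4 and 23.1 FPKM with 7KC (log2 fold change -0.34, and -0.17 without Cont-IMQ replicate 1). *Osbpl7* had 2.61 and 2.46 FPKM against 1.87 and 1.84 FPKM (log2 fold change -0.31, standard error 0.10, adjusted p = 0.366 in limma). In the opposite direction, *Osbpl10* had 0.819 and 0.748 FPKM against 1.35 and 1.11 FPKM, and *Osbpl3* 6.50 and 6.42 FPKM against 7.09 and 7.10 FPKM.
Among other sterol transfer proteins, 1 of 10 was higher and 3 were lower. *Npc1*, the membrane protein that exports cholesterol from lysosomes, had 17.9 and 18.2 FPKM without 7KC and 15.6 and 15.0 FPKM with 7KC (log2 fold change -0.22, standard error 0.08, adjusted p = 0.368 in limma). Its soluble partner *Npc2* had 99.3 and 99.0 FPKM against 93.1 and 86.6 FPKM. *Stard3*, which moves cholesterol to endosomes, was higher, with 12.1 and 12.2 FPKM against 12.3 and 14.5 FPKM. Without 7KC-IMQ replicate 2, the log2 fold change of *Stard3* was 0.018 in place of 0.13 and that of *Npc2* -0.090 in place of -0.14.

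Of the other hydroxylases and bile acid enzymes, 10 of 13 were tested, with 3 higher and 3 lower without overlap. These were 30.0% in each direction, against 23.9% higher and 22.9% lower among all genes tested. *Amacr* and *Acox2*, peroxisomal enzymes of side-chain shortening, had 5.15 and 4.56 FPKM against 6.88 and 5.91 FPKM, and 10.5 and 6.49 FPKM against 11.3 and 10.7 FPKM. *Cyp39a1*, which 7alpha-hydroxylates 24-hydroxycholesterol, had 3.81 and 4.83 FPKM without 7KC and 3.57 and 2.88 FPKM with 7KC, opposite in direction to *Cyp7b1* (log2 fold change -0.33, and -0.19 without Cont-IMQ replicate 2). *Hsd17b4*, another peroxisomal enzyme, had 45.3 and 43.0 FPKM against 42.6 and 41.4 FPKM (log2 fold change -0.070, and -0.032 without Cont-IMQ replicate 1).
*Por*, the reductase that hands electrons to *Cyp7b1* and other microsomal P450 enzymes, had 56.1 and 65.9 FPKM against 74.8 and 73.1 FPKM (log2 fold change 0.28, standard error 0.10, adjusted p = 0.374 in limma, and 0.16 without Cont-IMQ replicate 1). The mitochondrial donors of *Cyp27a1*, *Fdx1* and *Fdxr*, overlapped between the groups. *Ebp*, a sterol isomerase that forms part of the cholesterol epoxide hydrolase, had 49.5 and 33.9 FPKM against 49.9 and 53.2 FPKM, so that Cont-IMQ replicate 1 nearly reached the 7KC-IMQ group. Without Cont-IMQ replicate 2 the log2 fold change of *Ebp* was 0.06 in place of 0.32, and that of *Acox2* 0.06 in place of 0.37.

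**Figure D4:**
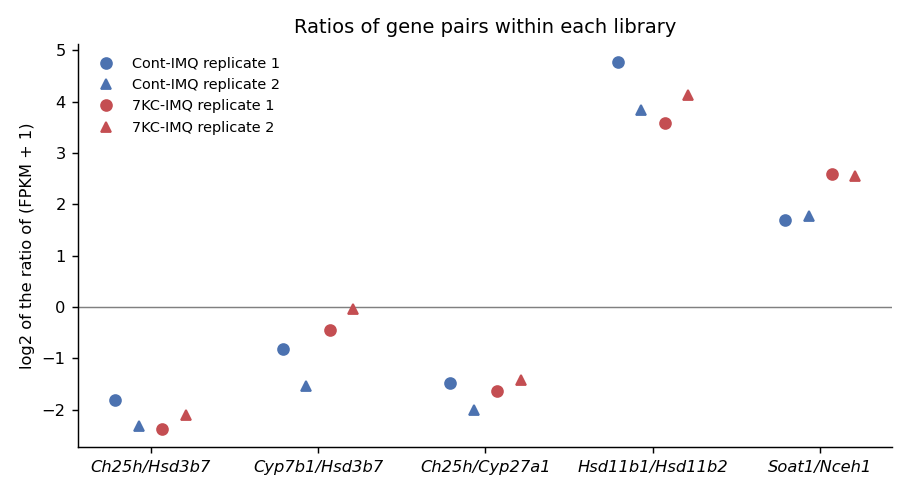
Log2 ratio of FPKM + 1 of gene pairs within each library (y axis), by pair (x axis), with color for the group and symbol for the replicate number. *Soat1*/*Nceh1* (1.70 and 1.77 against 2.58 and 2.55) and *Cyp7b1*/*Hsd3b7* separate the groups, and the other 3 pairs overlap.

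In the other 3 pairs the groups overlapped, with differences of -0.17 for *Ch25h* to *Hsd3b7*, 0.21 for *Ch25h* to *Cyp27a1* and -0.44 for *Hsd11b1* to *Hsd11b2* (exact two-sided permutation test, p = 0.667 for each). A ratio within a library is largely free of the scaling between libraries and shows unequal levels only.

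The skin is a mixture of cell types, and in such bulk samples fewer cells of a type and less RNA per cell cannot be told apart. The counts of separated markers below stand beside 23.9% higher and 22.9% lower without overlap among all genes tested. Macrophages and monocytes express *Ch25h*, *Cyp27a1*, *Nceh1* and *Lipa*, which were lower, and also *Soat1*, which was higher. Macrophage and monocyte markers summed to between 365 and 405 FPKM without 7KC and between 325 and 330 FPKM with 7KC. Of these markers, 3 of 8 were lower and 0 higher without overlap. *Lyz2*, 1 of the lower ones, made up most of the sum (210 and 233 FPKM against 191 and 175 FPKM). *Adgre1*, *Mrc1*, *Cd163*, *Ccr2* and *Ly6c2* overlapped between the groups. Endothelial markers summed to between 53.1 and 58.6 FPKM against 42.4 and 44.3 FPKM, with 5 of 6 lower. Sebocyte markers, from a gland that expresses *Soat1* strongly, summed to between 553 and 607 FPKM against 652 and 654 FPKM, with 4 of 8 higher and 2 lower. *Elovl3* was among the higher ones (128 and 110 FPKM against 174 and 175 FPKM). The lower ones were *Mc5r* (2.86 and 2.62 FPKM against 1.34 and 1.38 FPKM) and *Awat2* (13.2 and 13.3 FPKM against 13.0 and 13.1 FPKM). The sum therefore does not stand for all sebocyte markers. Neutrophil markers summed to between 18.9 and 22.04 FPKM against 29.3 and 32.1 FPKM, with 5 of 7 higher. *Cxcr2* made up most of this sum (13.4 and 15.05 FPKM against 20.2 and 23.03 FPKM). *Ngp* and *Elane* overlapped between the groups, and these and *Camp* were under 1 FPKM in all libraries. The neutrophil sum therefore stands mostly for *Cxcr2*, and whether the number of neutrophils differed was not tested. T cell markers were lower in sum, at 16.6 to 18.4 FPKM against 11.9 to 14.5 FPKM, with 2 of 6 higher and 2 lower.
The sums of keratinocyte (2 of 7 higher), fibroblast (1 of 7 higher, 1 lower), adipocyte (2 of 7 higher), hair follicle (0 of 8 separated), dendritic cell (2 of 8 higher), B cell (1 of 6 higher, 1 lower) and red blood cell markers (1 of 4 lower) overlapped between the groups. Hepatocyte markers (4 of 6 lower) and skeletal muscle markers (2 of 6 higher, 2 lower) were lower in sum without overlap. *Cyp2e1*, which skin also expresses, made up nearly all of the hepatocyte sum (105 to 197 FPKM), and each of the other 5 genes was under 3 FPKM. The part of each of these in the levels of the oxysterol genes was not tested.

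**Figure D5:**
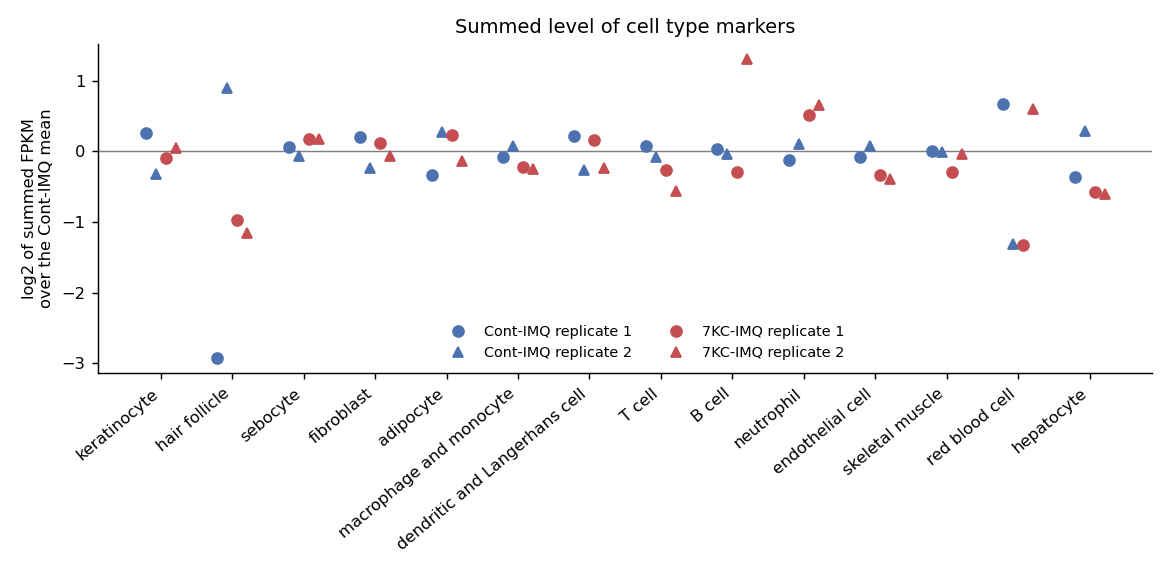
Log2 of the summed FPKM of each marker list over the mean of the Cont-IMQ libraries (y axis), by cell type (x axis), with color for the group and symbol for the replicate number. Neutrophil and sebocyte sums lie higher and macrophage, T cell and endothelial sums lower in both 7KC-IMQ libraries, and hair follicle markers spread most between the Cont-IMQ libraries (96.9 and 1381 FPKM).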

How the data were processed

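The authors mapped 75-base single-end reads of stranded mRNA libraries to mm10 and deposited 1 table of FPKM values per library, so the FPKM already hold their scaling to mapped fragments and exon length. The submitters' processing notes list TopHat2 2.1.1, Bowtie2 2.2.8, SAMtools 0.1.18 and Cuffdiff 2.2.1, whereas the methods name Cufflinks and other versions. Annotation, strand setting and treatment of reads with several matches are not given in the sources used here.

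Sample labels gave each library its group and number. Values were transformed to log2(FPKM + 1), genes with a mean of at least 0.1 FPKM were kept, and the 2 groups were compared by limma 3.58.1 in R 4.3.3 (trend of the variance on the mean, no block, Benjamini-Hochberg adjustment), a step tested on simulated data. Gene pairs were compared by exact permutation tests. Depth was estimated as the read number that brings low values of genes with 1 transcript to within 0.1 of whole reads, assuming fragments of 200 bases (72.7% to 76.6% of these genes, where an even spread gives 20%). Gene models came from GENCODE M21 (GRCm38, also called mm10) and promoters from RefSeq GRCm38.p6.

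The 9 genes and all lists were chosen with earlier results of these data known. Named genes were the 9, *Abcg1*, *Hsd11b2* and, per list, up to 2 of each direction with the largest difference among genes of at least 1 FPKM separated without overlap. Other genes named were chosen after their values were seen. *Sts*, *Flg*, *Trac*, *Trdc*, *Ly6g* and *Hbb-bt* of the lists, and so the planned ratio of *Sult2b1* to *Sts*, were not analysed here, and 1 gene that the rule names is not reported here. Alternatives were another pseudocount (0.1), filters (at least 1 FPKM, or none), 3 other scalings, no trend, a replicate block and leaving out each library.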

Additional observations from a re-analysis of the deposited data

How the results depend on the processing

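Under 8 alternatives of processing and with each library left out, none of the 9 oxysterol genes passed an adjusted p-value of 0.05 in limma, and 7 of them kept their direction throughout. *Hsd3b7* turned to 0.060 without Cont-IMQ replicate 2 and to 0.087 without 7KC-IMQ replicate 2, and ranged from -0.39 to 0.087 over the libraries left out. *Gpr183* turned to -0.057 without Cont-IMQ replicate 2 and to -0.022 without 7KC-IMQ replicate 1, and ranged from -0.057 to 0.40. It was not tested with a mean of at least 1 FPKM, since it falls under that filter. With a library left out, the difference in the log2 ratio of *Ch25h* to *Hsd3b7* ranged from -0.43 to 0.085 and that of *Hsd11b1* to *Hsd11b2* from -0.91 to 0.028, both turning without Cont-IMQ replicate 1. That of *Ch25h* to *Cyp27a1* ranged from -0.047 to 0.48 and turned without Cont-IMQ replicate 2. The cause was not tested.

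Over all genes, 2 passed as lower with a pseudocount of 0.1. Leaving out a library gave 0 to 2 genes higher and 1 to 9 lower, the most without Cont-IMQ replicate 1. With fewer libraries, separation without overlap is easier, and the count of oxysterol genes ranged from 4 to 5 higher and from 2 to 4 lower (4 without Cont-IMQ replicate 1 or 7KC-IMQ replicate 1), where 33.2% to 38.9% of all genes were then higher and 33.5% to 39.1% lower, and that of the 58 other genes from 14 to 24 higher (the most without Cont-IMQ replicate 1) and from 24 to 35 lower (the most without Cont-IMQ replicate 2). When every library was rescaled to the same sum, 4 of these were higher and 25 lower without overlap, beside 15.0% and 32.1% of all genes tested. By a different measure, a limma p-value under 0.05 before adjustment, 638 of all genes were then higher and 1229 lower, in place of 1192 and 869.

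Both groups are numbered 1 and 2, with no sign in the labels that equal numbers share a litter or a day. Same-numbered libraries deviated together only weakly (correlation of 0.065 across genes, which are not independent). With the replicate number as a block, 0 genes passed as higher and 1 as lower, and no call changed. The adjusted p-values of the 9 genes then ranged from 0.400 to 0.835.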

Other observations

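Further genes of oxysterol handling, named after their values were seen, lay apart between the groups. *Osbpl11*, an OSBP-related protein of the Golgi and late endosomes, had 11.5 FPKM in both Cont-IMQ libraries and 9.72 and 10.1 FPKM in the 7KC-IMQ libraries. *Insig2*, an anchor of the endoplasmic reticulum that binds oxysterols and holds back cholesterol synthesis, had 41.5 and 42.5 FPKM against 37.6 and 33.1 FPKM. *Abca1*, a cholesterol exporter and LXR target, had 12.5 and 13.6 FPKM against 9.94 and 11.0 FPKM, and *Nr1h2*, which encodes LXR-beta, had 45.4 and 42.3 FPKM against 41.1 and 38.2 FPKM. *Nr1h3*, which encodes LXR-alpha, had 10.3 and 15.8 FPKM against 10.2 and 10.2 FPKM, a separation that rested on a small gap to Cont-IMQ replicate 1. None of these passed an adjusted p-value of 0.05 in limma (0.366 to 0.594).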
